A study of Mus musculus with 2 samples.

Results

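The genes described here are 10 mouse heat shock protein genes, taken by symbol from the 32285 genes of the count tables: Hspa1a, Hspa1b, Hspa8, Hsph1, Hsp90aa1, Hsp90ab1, Dnaja1, Dnajb1, Hspe1 and Hspd1. All 10 symbols were found, each once. They were measured in 2 single-cell 3′ RNA libraries of sorted CD4+ YFP+ cells from mice with experimental autoimmune encephalomyelitis, induced with MOG, a myelin protein, in CFA (complete Freund's adjuvant) and sampled when disease peaked. The control library came from Il17Cre/R26YFP mice and the Id2-deficient library from Il17Cre/Id2f/f/R26YFP mice, so both carry the Cre that Il17 drives and the YFP reporter that it switches on. The floxed Id2 alleles set the groups apart, and deletion is limited to cells that have expressed Il17 and to their progeny. The labels name draining lymph node, spleen, or spleen with lymph node, and give neither the number of mice per library nor their age.

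Heat shock proteins are molecular chaperones, which hold unfolded or newly made proteins and help them fold. HSP70 proteins (Hspa1a, Hspa1b and Hspa8) bind exposed hydrophobic stretches in a cycle driven by ATP, J-domain proteins (Dnaja1, Dnajb1) deliver clients and start ATP hydrolysis, and the HSP110 protein Hsph1 exchanges the nucleotide. HSP90 proteins (Hsp90aa1, Hsp90ab1) act later on kinases and receptors, and Hspe1 with Hspd1 forms the chaperonin of the mitochondrial matrix. When unfolded protein accumulates, heat shock factor HSF1 binds heat shock elements, inverted repeats of the letters GAA, and drives the stress-inducible genes, of which Hspa1a and Hspa1b are the textbook case. Hspa8 and Hsp90ab1 are their constitutive counterparts. In T cells, activation and growth raise the demand for chaperones, and handling or warming of cells during preparation is known to induce HSF1 targets.

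The sequence before the start of Hspa1a and Hspa1b is shown first, since those genes carried the main difference between the libraries. Both lie on the minus strand of chromosome 17, Hspa1a (ENSMUSG00000091971) at chr17:34969190-34972156 and Hspa1b (ENSMUSG00000090877) at chr17:34956436-34959238 (GRCm38, GENCODE M21). The 250 bases before each start, which touch no annotated exon, are from the RefSeq promoter table (GRCm38.p6), 5′ to 3′ on the gene's strand, with capitals marking a match to the heat shock element motif GAANNTTC:
Hspa1a, chr17:34972157-34972406: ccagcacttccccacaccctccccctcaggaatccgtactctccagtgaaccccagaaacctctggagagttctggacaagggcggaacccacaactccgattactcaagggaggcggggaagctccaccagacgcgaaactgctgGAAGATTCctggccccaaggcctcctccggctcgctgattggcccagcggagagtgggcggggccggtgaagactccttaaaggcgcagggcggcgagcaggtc
Hspa1b, chr17:34959239-34959488: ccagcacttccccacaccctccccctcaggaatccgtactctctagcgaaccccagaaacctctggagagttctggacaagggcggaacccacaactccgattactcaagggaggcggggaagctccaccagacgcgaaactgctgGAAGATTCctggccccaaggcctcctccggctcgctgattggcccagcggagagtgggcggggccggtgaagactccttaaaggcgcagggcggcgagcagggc

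These stretches are identical at 247 of 250 positions (98.8%), and the match starts at position -104 from the gene start in each. Reads from the body of either transcript can be ambiguous, because 58.8% of the 50-base words of the Hspa1a transcript also occur in that of Hspa1b and 62.3% the other way. None of the 451 words in the last 500 bases, where a 3′ library samples, is shared, so the 3′ ends are distinct.

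Sites of 4 other members show how the element can be arranged, again in capitals. Hspe1 and Hspd1 stand head to head on chromosome 1 with overlapping annotated starts (Hspe1 at chr1:55088132-55091307, plus strand; Hspd1 at chr1:55077835-55088243, minus strand) and share the site printed for Hspe1, which is the longer form with alternating GAA and TTC units:
Hspe1 and Hspd1, chr1:55088058-55088082, plus strand: gTTCTAGAACCTTCCGGAAggcccc
Dnaja1, chr4:40722336-40722359, plus strand: agcctctaGAAAATTCtacgaggc
Hsph1, chr5:149636282-149636306, minus strand: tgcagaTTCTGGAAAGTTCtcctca
These 3 sites lie in bases that GENCODE M21 annotates as exonic. The Hspe1 matches begin between positions -89 and -79 from its start, that of Dnaja1 at -124 from the first of its 3 starts in the table, and the Hsph1 match shown at 16 after its start.

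The promoter table held 7 of the 10 members; Hspa8, Hsp90aa1 and Hsp90ab1 were not in it. The motifs searched were GAANNTTC and TTCNNGAA, each its own reverse complement, and the longer GAANNTTCNNGAA and TTCNNGAANNTTC, which are each other's reverse complements and contain the short ones, so both strands were covered. Of 32851 promoter windows of the same length (250 bases before to 50 after a start), 15.1% held either short motif and 0.603% held either long one. A short motif was found for Hspa1a, Hspa1b, Dnaja1, Hsph1, Hspe1 and Hspd1, and a long one for Hsph1, Hspe1 and Hspd1, while the Dnajb1 windows held neither. A match is a run of letters and was not tested as a binding site.

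The libraries held 4937 control and 2459 Id2-deficient barcodes with 33646845 and 14668624 UMIs, and median depths of 5448 and 5643 UMIs per barcode. They differed in the share of UMIs from the 13 mitochondrially encoded (mt-) genes. Of barcodes with at least 200 genes, 3 control but 520 Id2-deficient ones were over 10% (21.1% of all Id2-deficient barcodes). Barcodes under 200 genes were left out of all results below. Those over 10% were left out too, except in results on the mt- share and where no limit is stated. This left 4925 and 1934 cells, and 3 barcode sequences occurred in both libraries. Cells with at least 3 Cd79a UMIs and no Cd3d, Cd3e or Cd3g UMI are called B cells (36 control, 33 Id2-deficient). Cells with at least 3 UMIs of Trdc, a constant region gene of the γδ T-cell receptor, are called Trdc cells (611 and 147). The rest with a CD3 UMI and under 3 Cd79a UMIs are called other T cells (4177 and 1733), and the remainder has no class (101 and 21). Class markers were highest in the classes they name: γδ markers stood at 2504 and 2973 UMIs per 1000000 UMIs (CPM) in Trdc cells against 110 and 43.3 in other T cells, and B cell markers at 6506 and 9801 CPM in B cells. B cell markers also stood at 153 and 167 CPM in Trdc cells, against 18.5 and 7.85 CPM in other T cells. A UMI of them was seen in 60.7% and 61.9% of Trdc cells. Although the sort was for CD4, a Cd4 UMI was seen in 62.3% and 77.4% of other T cells and in 11.8% and 12.2% of Trdc cells. Id2 itself stood at 320 CPM in control and 11.7 CPM in Id2-deficient other T cells, and at 442 and 19.6 CPM in Trdc cells. The labels give the genotype, and the deleted exons are not given in the sources used here. In cells of no class Id2 stood at 95.3 and 134 CPM, and in B cells it had 6 and 0 UMIs, too few to place. Id2-deficient is therefore used as the name of the library, and loss of Id2 was not shown for its B cells or its cells of no class. With 1 library per genotype there is no replicate check and no test; every 95% interval covers counting error only, and genotype, mouse and handling of a library cannot be told apart.

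In other T cells the inducible HSP70 genes were about 3 times as high in the Id2-deficient library, while their constitutive relative Hspa8 and most other members stood close to the same level in both. Hspa1a measured 100 CPM (exact Poisson interval 96.7 to 104) in the control against 286 CPM (277 to 296) in the Id2-deficient library. The ratio was 2.85-fold, or 1.51 on the log2 scale (exact conditional binomial interval 1.44 to 1.58). Hspa1b measured 132 CPM (128 to 136) and 441 CPM (430 to 453), 3.34-fold higher (log2 1.74, 1.68 to 1.80). Among 10891 genes with at least 50 UMIs over both libraries, 2.23% had a log2 ratio as high as that of Hspa1a and 1.54% one as high as that of Hspa1b. Summed, the pair stood at 233 and 728 CPM, a ratio of 3.13-fold (log2 1.65, 1.60 to 1.69). Hspa8, the constitutive HSP70 that also uncoats clathrin vesicles, measured 1336 CPM in the control against 1267 CPM in the Id2-deficient library (log2 -0.08, -0.10 to -0.05). Within the HSP70 family, over all other T cells, the inducible genes thus stood higher in the Id2-deficient library and the constitutive gene did not.

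Hsph1, the HSP110 nucleotide exchange factor, measured 32.0 and 46.3 CPM, a ratio just under 1.5-fold (log2 0.53, 0.38 to 0.68). Of the cytosolic HSP90 genes, the inducible Hsp90aa1 measured 258 CPM in the control against 387 CPM in the Id2-deficient library (log2 0.59, 0.53 to 0.64), a ratio of 1.501-fold that lies on the threshold itself. It stayed at or above 1.5-fold in 8 of 13 alternative settings. The constitutive Hsp90ab1 measured 1394 and 1610 CPM (log2 0.21, 0.18 to 0.23). So the inducible HSP90 gene had the larger ratio of the pair, as with the HSP70 genes, but a far smaller one than Hspa1a or Hspa1b.

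The J-domain genes were close to level: Dnaja1, which encodes a cytosolic J protein that can be farnesylated, measured 396 CPM in the control against 404 CPM in the Id2-deficient library (log2 0.03, -0.02 to 0.08). Dnajb1, the J protein that pairs with inducible HSP70 and is itself a known HSF1 target, measured 67.8 and 77.8 CPM (log2 0.20, 0.08 to 0.31). The mitochondrial chaperonin subunits went in opposite directions by small amounts. Hspe1 (HSP10, the lid of the chamber) measured 349 and 376 CPM (log2 0.11, 0.06 to 0.16), and Hspd1 (HSP60, the chamber) 172 and 152 CPM (log2 -0.18, -0.26 to -0.10).

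Counted over the group, 3 of 10 members (Hspa1b, Hspa1a and Hsp90aa1) were higher by 1.5-fold or more in the Id2-deficient library, beside 16.7% of the 10891 genes measured, and 0 of 10 were at least 1.5-fold lower, beside 9.76%. The median log2 ratio was 0.20 over the members and 0.09 over all genes. Markers of other cells moved with the library in these same cells: the 8 myeloid markers summed to 2002 CPM in the control against 165 CPM in the Id2-deficient library, with Itgam at 0 in the latter, and the 6 red cell markers to 218 and 4.36 CPM, with Car1 and Alas2 at 0 in the latter. Their part in the members' ratios was not tested.

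**Figure D1:**
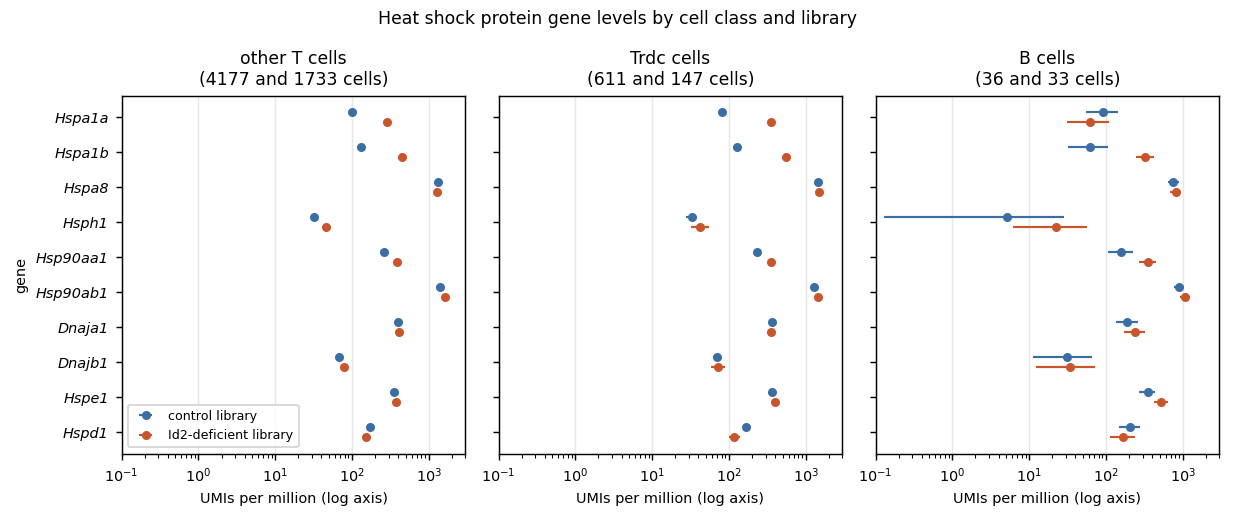
Level of each heat shock protein gene in CPM (log axis) in other T cells, Trdc cells and B cells of the control (blue) and Id2-deficient (orange) library; bars are exact 95% Poisson intervals of 1 library each. Hspa1a and Hspa1b separate the libraries in both T cell classes, at 100 against 286 and 132 against 441 CPM in other T cells.

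The Trdc cells, a class with a different receptor from the cells the sort was aimed at, showed the same pair apart between the libraries. Hspa1a measured 82.3 CPM (74.2 to 91.1) in control and 351 CPM (318 to 386) in Id2-deficient Trdc cells, 4.26-fold higher (log2 2.09, 1.89 to 2.29). Hspa1b measured 128 CPM (118 to 138) and 550 CPM (509 to 593), 4.31-fold higher (log2 2.11, 1.95 to 2.27). These 2 of 10 members were at least 1.5-fold higher, beside 9.89% of 7627 genes measured in this class, and 0 were at least 1.5-fold lower, beside 9.41%. Hsp90aa1, at 234 and 351 CPM, missed the threshold narrowly (log2 0.58, 0.42 to 0.74). Hspd1 was the lowest, with 166 CPM in the control against 117 CPM in the Id2-deficient library (log2 -0.50, -0.76 to -0.24). The other 6 members lay between log2 -0.0029 (Dnaja1) and 0.37 (Hsph1, from 151 and 52 UMIs). Markers of other cells differed here too: plasma cell markers summed to 159 CPM in control and 22.8 CPM in Id2-deficient Trdc cells. Myeloid markers summed to 441 and 268 CPM and red cell markers to 22.7 and 0 CPM. A UMI of Trac, listed among the T cell markers, was seen in 31.8% and 42.9% of Trdc cells. The part of these RNAs in the Trdc cell ratios was not tested.

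In the B cells Hspa1b was higher in the Id2-deficient library, while Hspa1a had too few UMIs to place. Hspa1b had 12 UMIs in the 36 control B cells and 58 UMIs in the 33 B cells of the Id2-deficient library, or 61.4 and 324 CPM (log2 2.40, 1.49 to 3.44). Id2 had 6 and 0 UMIs in them, so loss of Id2 in these B cells was not shown. Hspa1a had 18 and 11 UMIs, or 92.1 and 61.5 CPM (log2 -0.58, -1.81 to 0.58), an interval that covers both directions. That is under the 50 UMIs over both libraries set for a measured gene. The Hspa1a UMIs lay in 6 of 36 control and 7 of 33 Id2-deficient B cells. Hsp90aa1 had 31 and 63 UMIs (log2 1.15, 0.51 to 1.82). With each cell thinned to 1000 UMIs, Hsp90aa1 in B cells was at log2 0.13 and no longer past 1.5-fold, while Hspd1 was at 0.97 and Dnaja1 at 1.26, both under 1.5-fold unthinned. Of the 7 members with at least 50 UMIs over both libraries 2 (Hspa1b and Hsp90aa1) were at least 1.5-fold higher, beside 22.4% of 760 genes, and 0 lower, beside 8.03%. Hspe1 was just under the threshold with 68 and 93 UMIs (log2 0.58, 0.11 to 1.05). Hsph1 had 1 and 4 UMIs and Dnajb1 6 and 6 UMIs, too few to place. The control gate also held plasma cell RNA: 4 plasma cell markers summed to 15257 CPM in control and 448 CPM in Id2-deficient B cells, with Jchain and Tnfrsf17 at 0 in the latter. The 8 myeloid markers summed to 1627 against 302 CPM, with Lyz2, Csf1r, Itgam, S100a8 and Fcer1g at 0 in the Id2-deficient B cells. The 6 red cell markers summed to 384 against 11.2 CPM, with Car1 and Alas2 at 0 in both libraries and Hbb-bs, Hba-a1 and Hba-a2 at 0 in the Id2-deficient one. The part of these RNAs in the ratios was not tested.

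**Figure D2:**
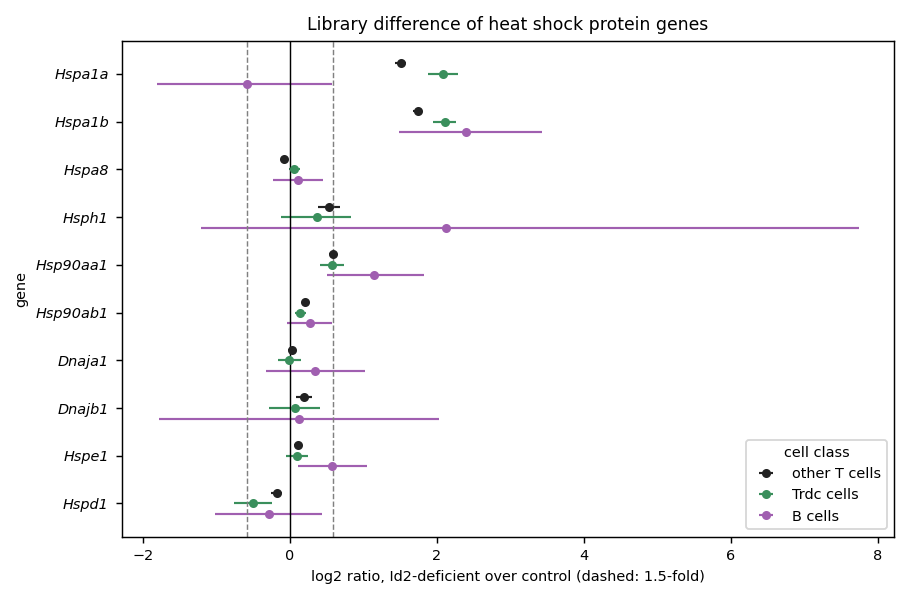
Log2 ratio of each heat shock protein gene, Id2-deficient over control, in other T cells (black), Trdc cells (green) and B cells (purple), with exact conditional 95% intervals of counting error; dashed lines mark 1.5-fold. Hspa1a and Hspa1b lie right of the dashed line in both T cell classes (1.51 to 2.11), whereas Hspa1a in B cells spans 0.

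Within a library no member differed by 1.5-fold between the T cell classes. Against other T cells, 0 of 10 members were 1.5-fold higher or lower in Trdc cells of the control, beside 7.87% of genes higher and 10.5% lower, and 0 of 10 in the Id2-deficient library, beside 10.3% and 17.9%. In the control, Hspa1a was slightly lower in Trdc cells (log2 -0.29, -0.45 to -0.13) and Hspa1b close to level (-0.05, -0.18 to 0.08). In the Id2-deficient library both were slightly higher in Trdc cells, Hspa1a by log2 0.29 (0.15 to 0.44) and Hspa1b by 0.32 (0.20 to 0.43). Whether those class differences differ between the libraries was not tested.

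B cells had lower levels of most members than other T cells of the same library, as did about as large a share of all genes. In the control 7 of 10 members were at least 1.5-fold lower in B cells, beside 52.8% of genes, and in the Id2-deficient library 6 of 10, beside 45.5%; 0 were higher in either, beside 13.9% in each. Hspa8 measured 752 CPM in control B cells against 1336 CPM in other T cells (log2 -0.83, -1.07 to -0.60), and 811 against 1267 CPM in the Id2-deficient library (-0.64, -0.89 to -0.41). The mitochondrial pair stood apart from that pattern: Hspe1 was at log2 -0.01 (-0.37 to 0.34) in the control against 0.47 (0.16 to 0.76) in the Id2-deficient library, and Hspd1 at 0.25 (-0.23 to 0.70) and 0.15 (-0.42 to 0.67). Hspa1a showed the lowest B cell level relative to other T cells among the members of the Id2-deficient library. It stood at 61.5 CPM, from 11 UMIs, against 286 CPM (log2 -2.22, -3.22 to -1.38).

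The library difference in inducible HSP70 was spread over many cells. After each other T cell was thinned to 1000 UMIs, a Hspa1a or Hspa1b UMI was present in 16.3% of the control (15.2% to 17.5%, Clopper-Pearson) and 45.4% (43.0% to 47.8%) of the Id2-deficient cells, with 2 and 7 shallower cells left out. Unthinned, the shares were 38.4% and 80.3%, at median depths of 5365 and 6214 UMIs. At least 3 UMIs of the pair were seen in 2.11% (1.69% to 2.59%) of thinned control and 8.86% (7.57% to 10.3%) of thinned Id2-deficient cells. No class here is known to lack these genes, so the share that free RNA alone would give could not be set beside these values.

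Trdc cells gave nearly the same shares, 15.9% (13.1% to 19.0%) and 49.7% (41.3% to 58.0%) after thinning, and B cells 4 of 36 (11.1%, 3.11% to 26.1%) and 7 of 33 (21.2%, 8.98% to 38.9%), intervals that overlap widely. For the constitutive Hspa8 the thinned share in other T cells was 68.2% in the control against 65.5% in the Id2-deficient library, and for Hsp90ab1 68.5% and 72.0%. No small set of cells carried the pair. The cell with the most had 41 UMIs in the control against 50 in the Id2-deficient library, and the 1% of cells with the most held 12.0% and 5.98% of the pair's UMIs. Without those cells the log2 ratio of the pair was 1.74, against 1.65 with them.

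**Figure D3:**
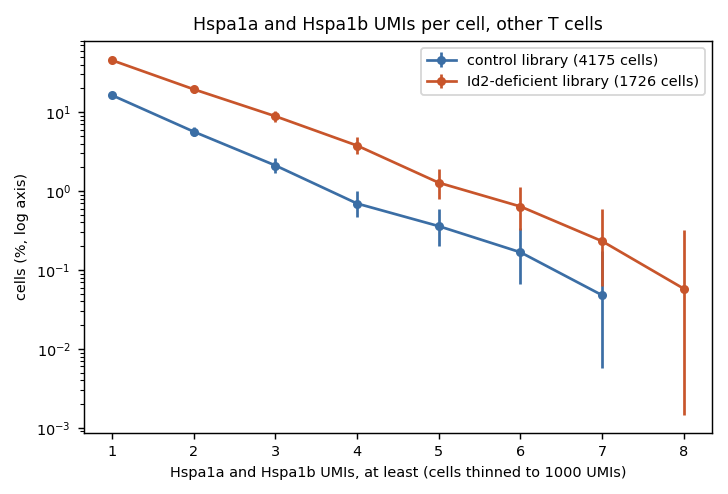
Share of other T cells (log axis) with at least the given number of Hspa1a and Hspa1b UMIs after thinning to 1000 UMIs per cell, with Clopper-Pearson 95% intervals; 4175 control and 1726 Id2-deficient cells. The Id2-deficient curve lies above the control curve from 1 UMI (45.4% against 16.3%) to 3 UMIs (8.86% against 2.11%) and beyond.

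The mt- share of a cell is often read as a sign of leaky or stressed cells, and it differed between the libraries: the median other T cell had 1.76% in the control against 4.23% in the Id2-deficient library. To take that share's own UMIs out of the scale, levels by mt- share are given per 1000000 UMIs outside mt- genes (non-mt- CPM), over all barcodes with at least 200 genes. In the control the pair Hspa1a and Hspa1b measured 129 non-mt- CPM (114 to 146) in cells under 1% mt-, 240 (233 to 247) at 1 to 2%, 256 at 2 to 3%, 286 at 3 to 4% and 262 (180 to 368) at 4 to 6%. Above 1% the control values thus hardly moved. In the Id2-deficient library the pair measured 534 non-mt- CPM (502 to 567) at 2 to 3%, 722 (695 to 749) at 3 to 4%, 858 (833 to 883) at 4 to 6%, 973 (909 to 1039) at 6 to 10% and 2261 (2000 to 2547) at 10 to 20%. There the level was higher in each step up to 20%, and above 20% it was 1560 non-mt- CPM.

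The mitochondrial members, Hspa8 and both HSP90 genes were lower at 6 to 10% than at 2 to 3% mt-. From 2 to 3% to 6 to 10% mt- in the Id2-deficient library, Hspd1 measured 283 and 104 non-mt- CPM (log2 -1.44, -1.77 to -1.12). Hspa8 measured 1845 and 1026 (log2 -0.85, -0.95 to -0.74), Hspe1 490 and 319 (-0.62, -0.82 to -0.43) and Hsp90aa1 573 and 377 (-0.60, -0.78 to -0.43). The steps of Hsp90aa1 were not in 1 direction, as it was lowest at 4 to 6% (340 non-mt- CPM) and at 459 at 10 to 20%; Hsp90ab1 was at 1434 at 6 to 10% and 1493 at 10 to 20%. These 4 of 10 members were at least 1.5-fold lower, beside 11.1% of 6101 genes, and Hspa1a (log2 0.96, 0.74 to 1.18) and Hspa1b (0.81, 0.65 to 0.98), 2 of 10, at least 1.5-fold higher, beside 24.4%. The median was log2 -0.56 over members and 0.17 over all genes. Depth and cycling moved with the mt- share: the median cell had 7862 UMIs at 2 to 3% and 4971 at 6 to 10%, and 41.8% and 16.8% of cells had at least 2 UMIs of cycling markers. Their part was not tested.

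In the control, cells at 3 to 6% against 1 to 2% gave 0 of 10 members past 1.5-fold in either direction, beside 24.4% of genes higher and 12.7% lower. Hspa8 measured 1087 against 1365 non-mt- CPM (log2 -0.33, -0.43 to -0.23) and the pair 282 against 240 (0.23, 0.02 to 0.43). The steps compared are lower than in the Id2-deficient library, where 5 other T cells were under 1% and 19 at 1 to 2%, so the 2 relations are given side by side and their difference was not tested.

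**Figure D4:**
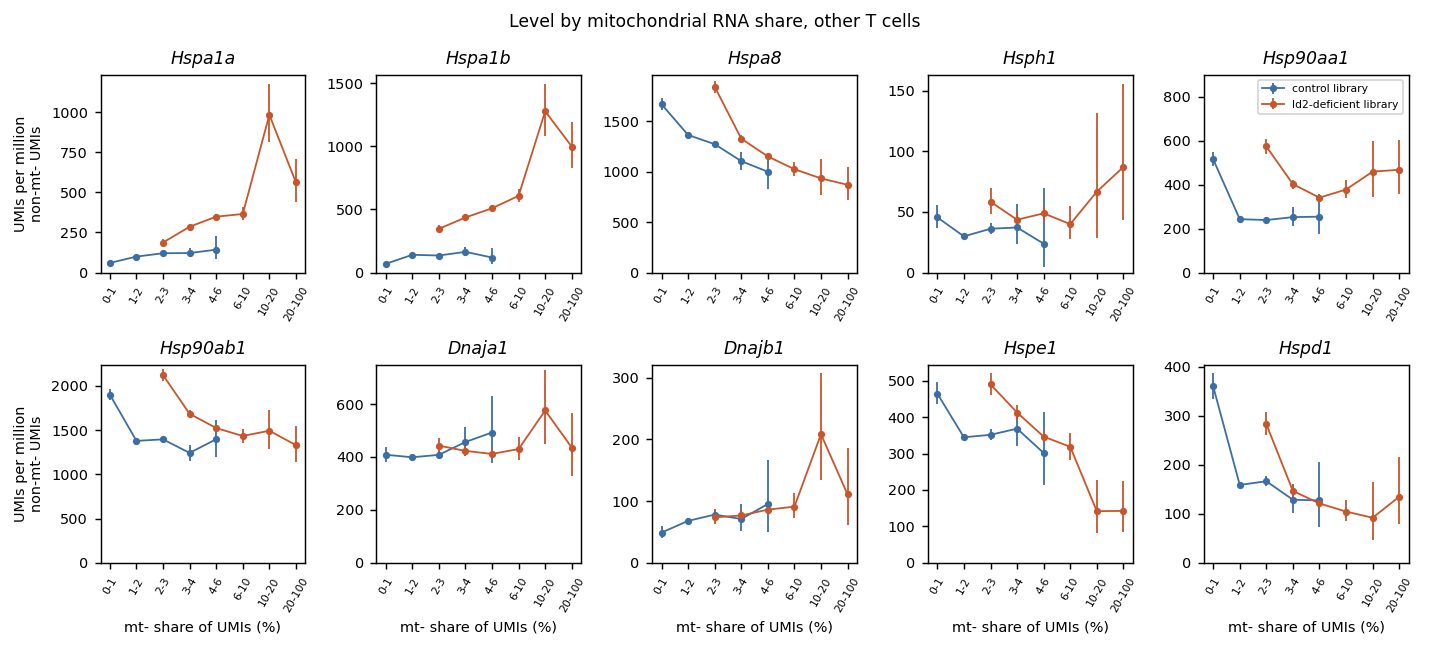
Level of each heat shock protein gene in non-mt- CPM, by the mt- share of UMIs of the cell, in other T cells of the control (blue) and Id2-deficient (orange) library; points with at least 20 cells, bars are exact 95% Poisson intervals. In the Id2-deficient library Hspa1a and Hspa1b are highest at 10 to 20% mt-, while Hspa8, Hspe1 and Hspd1 are highest at 2 to 3%.

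Barcodes over 10% mt- were the far end of this range. In the Id2-deficient library 274 of them had a CD3 UMI and were other T cells by the gate, with a median of 1004 UMIs, and 242 had no class, with a median of 808 UMIs. The pair measured 1901 non-mt- CPM (1733 to 2081) in the first set and 1916 (1701 to 2152) in the second. Against T cells at 2 to 3%, Hspa1a was at log2 2.03 (1.77 to 2.29), Hspa1b at 1.71 (1.51 to 1.91) and Dnajb1, with 39 UMIs, at 1.10 (0.56 to 1.62). Hspe1 was at -1.79 (-2.32 to -1.30), Hspd1 at -1.31 (-1.92 to -0.77), Hspa8 at -1.03 (-1.23 to -0.84) and Hsp90ab1 at -0.59 (-0.75 to -0.43). That made 3 of 10 at least 1.5-fold higher, beside 48.2% of 5463 genes, and 4 of 10 lower, beside 27.3%, so most genes were past the fold there. Ribosomal protein genes, which gave 32.4% of non-mt- UMIs at 2 to 3%, gave 6.84% at 10 to 20% and 4.999% above 20%, and their part in these ratios was not tested.

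Between libraries at the same mt- share, the inducible pair was still higher in the Id2-deficient library. At 2 to 3% (1152 control and 194 Id2-deficient cells) the pair measured 250 and 519 CPM (log2 1.06, 0.94 to 1.17), at 3 to 4% (154 and 500 cells) 276 and 697 CPM (1.33, 1.11 to 1.57), and at 4 to 6% (41 and 824 cells) 250 and 817 CPM (1.71, 1.21 to 2.25). The ratio at 2 to 3% was 2.08-fold, smaller than the 3.13-fold over all other T cells. In that window 6 of 10 members were at least 1.5-fold higher, beside 11.6% of 8483 genes, and 0 lower, beside 12%. They were Hspa1b (log2 1.35), Hsp90aa1 (1.26), Hspd1 (0.76), Hsph1 (0.69), Hspa1a (0.63) and Hsp90ab1 (0.60), so Hspd1 turned from -0.18 over all other T cells. The constitutive Hspa8 was also higher at matched mt- share, by log2 0.53 (0.47 to 0.59) at 2 to 3% and 0.26 (0.14 to 0.38) at 3 to 4%, with 0.20 (-0.05 to 0.47) at 4 to 6%. Cycling cells made up 18.5% of the control and 41.8% of the Id2-deficient cells of the window, and their part was not tested.

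Across single other T cells the relation of each member to the mt- share was weak. Spearman's rho for the pair, on non-mt- UMIs, was 0.01 over 4179 control and 0.08 over 2007 Id2-deficient barcodes. For the pair in the Id2-deficient library it was 0.12 with each cell thinned to 1000 UMIs and 0.11 with barcodes over 10% mt- left out. The lowest values were -0.30 for Hspe1, -0.24 for Hspd1 and -0.22 for Hspa8, all in the Id2-deficient library. They were -0.09, -0.12 and -0.16 with barcodes over 10% mt- left out, an alternative chosen after seeing the data, and -0.11, -0.06 and -0.17 with each cell thinned to 1000 UMIs. In the control the 10 members lay between -0.13 (Hspa8) and 0.03 (Dnaja1). Depth is shared by these points, as a cell's total UMIs had a rho of -0.32 with its mt- share in the control against -0.57 in the Id2-deficient library.

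Cycling cells had higher levels of Hsp90aa1 and Hspd1 and lower levels of the inducible HSP70 pair in both libraries. Cells with at least 2 UMIs of 11 cycling markers (1209 control and 481 Id2-deficient other T cells) were set against cells with 0. Hsp90aa1 measured 331 CPM in cycling and 209 CPM in non-cycling control cells (log2 0.66, 0.58 to 0.74), and 505 and 302 CPM in the Id2-deficient library (0.74, 0.65 to 0.84). Hspd1 measured 212 and 142 CPM in the control (0.57, 0.48 to 0.67) and 211 and 115 CPM in the Id2-deficient library (0.88, 0.72 to 1.03). The inducible pair was lower in cycling cells of both, at 192 against 274 CPM (log2 -0.51, -0.60 to -0.43) and 564 against 853 CPM (-0.60, -0.67 to -0.52). Past 1.5-fold higher were 1 of 10 members in the control (Hsp90aa1), beside 6.62% of genes, and 2 in the Id2-deficient library (Hspd1 and Hsp90aa1), beside 8.08%; past 1.5-fold lower were 0, beside 4.43%, and 1 (Hspa1b, log2 -0.67), beside 5.17%. Cycling cells were also deeper, with medians of 7447 against 4792 (control) and 7806 against 5649 UMIs (Id2-deficient).

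The library ratio of the inducible pair was above 2-fold in every subset of other T cells examined. It was log2 1.56 (1.48 to 1.64) in cycling cells and 1.64 (1.57 to 1.71) in cells with no cycling marker UMI. Cells with a UMI of Cxcr5, the follicular helper chemokine receptor (271 control, 574 Id2-deficient), gave 253 and 613 CPM (1.28, 1.12 to 1.43). Cells with an Ifng or Nkg7 UMI, genes of interferon γ and cytotoxic granules (1016 and 39), gave 237 and 635 CPM (log2 1.42, 1.21 to 1.62). Cells with a UMI of Foxp3, which defines regulatory T cells (59 and 14), gave 133 and 653 CPM from 58 UMIs in each (2.30, 1.75 to 2.85). Cells with none of these and under 2 cycling UMIs (2129 and 834) gave 259 and 891 CPM (1.78, 1.71 to 1.85). The subsets differ greatly in size between the libraries, and their ratios were not tested against each other.

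Hspa1a and Hspa1b were the most alike members across cells. Pearson's r of their log2(UMIs per 10000 + 1) was 0.42 over 4177 control and 0.31 over 1733 Id2-deficient other T cells. The other 44 pairs of members ranged from 0.0025 to 0.18 (control) and from -0.07 to 0.29 (Id2-deficient), with Hspa8 and Hsp90ab1 the highest in both. The 16 pairs of Hspa1a or Hspa1b with another member reached at most 0.10 and 0.07, so across cells the inducible HSP70 genes hardly varied with the rest of the group. Hspe1 and Hspd1, the head-to-head neighbours, were at 0.11 and 0.16. These values are descriptions over cells that share a library, and in counts this sparse low values of r say little.

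**Figure D5:**
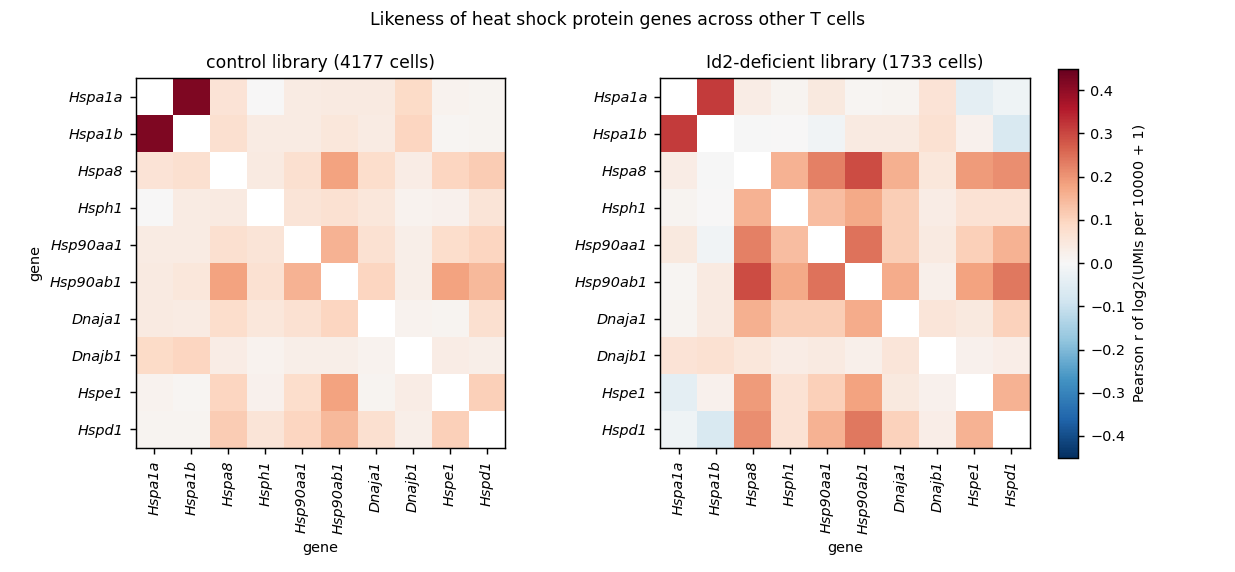
Pearson's r between heat shock protein genes across other T cells of the control (left) and Id2-deficient (right) library, on log2(UMIs per 10000 + 1). The Hspa1a and Hspa1b square is the darkest in each (0.42 and 0.31). In the Id2-deficient library a second block of Hspa8, Hsp90aa1, Hsp90ab1 and Hspd1 is paler, at most 0.29. In the control pairs of these genes lay between 0.07 and 0.18, and Hsp90ab1 with Hspe1 was also at 0.18.

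Of 7394 genes outside the group, those with the highest mean r with the summed level of Hspa1a, Hspa1b, Dnajb1 and Hsph1 were Jun (0.13 in the control, 0.18 in the Id2-deficient library), Fos (0.17 and 0.13), Malat1 (0.10 and 0.18), Rps21 (0.09 and 0.17) and Rps27 (0.10 and 0.16). Jun and Fos encode partners in the AP-1 factor and are immediate early genes, Malat1 is a nuclear noncoding RNA, and Rps21 and Rps27 encode ribosomal proteins. All 5 values are low. In other T cells Jun measured 143 CPM in the control against 303 CPM in the Id2-deficient library, and Fos 110 and 125 CPM.

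In the rest of the chaperone system the list medians ran from log2 -0.11 for the ER chaperones to 0.18 for the 2 measured small heat shock proteins, beside 0.20 for the members. The medians were 0.15 for heat shock factors, -0.02 for the cytosolic chaperonin and prefoldin and -0.05 for mitochondrial chaperones and proteases. Of 8 measured genes among the other HSP70 and HSP110 family members, 1 was higher by 1.5-fold or more in Id2-deficient other T cells (Hspa13, a microsomal HSP70, log2 0.69) and 0 lower, with a median of -0.01 and the lowest at -0.23 (Hspa2). Of 22 other J-domain genes 1 was higher (Dnajb4, 1.13) and 1 lower (Dnajc15, an inner mitochondrial membrane protein, -1.10), median -0.02. Of 21 HSP70 and HSP90 co-chaperone genes 1 was higher (Bag3, a nucleotide exchange factor and known HSF1 target, 0.59) and 1 lower (Hspbp1, -0.84), median 0.03. The background for these counts is the same 16.7% higher and 9.76% lower as for the members.

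Small heat shock protein genes had 2 measured members, Hspb6 (log2 0.57) and Hspb11 (-0.21). The heat shock factor list had 4 measured genes, 0 past the fold, from Hsf2 (-0.19) to Hsbp1 (0.34), a binding protein that dampens HSF1. Of 14 genes of the cytosolic chaperonin TRiC and prefoldin 0 were higher and 1 lower (Cct6a, -0.62), with Cct3 highest at 0.24. Of 10 mitochondrial chaperone and protease genes 0 were past the fold, from Grpel1, the nucleotide exchange factor of the matrix HSP70, at -0.56 to Timm44 at 0.28. Of 17 endoplasmic reticulum chaperone genes 1 was higher (Ddit3, the stress factor CHOP, 0.95) and 2 lower, the lowest being the disulfide isomerase Pdia3 (-0.66), median -0.11.

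Lists of neighbouring responses were set beside the chaperones. Of 18 measured immediate early and dissociation genes 6 were at least 1.5-fold higher (highest Egr1, log2 2.00) and 3 lower (lowest Ier3, -3.05), beside 16.7% higher and 9.76% lower of all genes, with a median of 0.30. Of 10 T cell activation and growth genes 0 were higher and 4 lower (lowest Myc, -0.81; highest Tnfrsf4, 0.42), beside the same shares, with a median of -0.28. These lists were chosen with earlier results of these data known and are given as counts.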

How the data were processed

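Single-cell RNA was counted in 2 libraries. The files hold the deposited counts, unnormalized UMI counts per gene and barcode made by the authors with Cell Ranger, version 5.0.1 per the file headers and 1.3 per the submitters' processing notes; the build was mm10 per the same notes. The labels name the 3′ v2 kit. The filter put on barcodes before deposit was not given in the sources used here.

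Barcodes with at least 200 genes and at most 10% mt- UMIs were kept. UMIs were summed per class and library and divided by all UMIs of that class (CPM, per 1000000). No doublet caller was run. A gene was measured with at least 50 UMIs over both sums compared, and called at 1.5-fold or more. Levels have exact Poisson intervals, ratios exact conditional binomial intervals and shares Clopper-Pearson intervals, all at 95%. PCR duplicates are collapsed by UMI, and intervals cover counting error only. The ratio step was tested on simulated data. Cells were thinned to 1000 UMIs with a fixed seed. Python 3.11.15, numpy 2.4.6, scipy 1.17.1, pandas 2.3.3 and matplotlib 3.10.9 were used. Coordinates are from GENCODE M21 and promoters from RefSeq.

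The text names all 10 members, the highest and lowest measured gene of each list, and the 5 genes most like the inducible members; list genes at or past 1.5-fold beyond these are only counted. Members and lists were chosen with earlier results of these data known. Alternatives changed the denominator, the mt- limit, the gates, the weighting of cells and the cells left out.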

Additional observations from a re-analysis of the deposited data

Results flagged for a closer look

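Hspa1a in B cells had a log2 ratio of -0.581 (Id2-deficient over control, 18 UMIs in 36 control and 11 UMIs in 33 Id2-deficient cells), the opposite sign to other T cells (1.51) and to Trdc cells (2.09). Each group of cells is 1 library, so the signs differ in the only libraries there are, and the difference between the classes was not tested. The interval in B cells, -1.81 to 0.58, covers 0.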

How the results depend on the processing

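The log2 ratio of the Hspa1a and Hspa1b sum in other T cells, 1.65, was above 0 and past 1.5-fold in all 13 alternatives run. It was 1.60 with the mt- limit at 5%, 1.72 with mt- and ribosomal protein UMIs out of the denominator, 1.06 in cells at 2 to 3% mt-, 1.69 with cells weighted equally, 1.74 without the 1% of cells with the most UMIs of the pair, and 1.196 as the mean within 2 mt- windows. The number of members at least 1.5-fold higher there was 3, and 6 in the 2 to 3% window, the cause of which was not tested. Only Hspa1a and Hspa1b remained with no limit on the mt- share, with thinning to 1000 UMIs or with at least 3 CD3 UMIs. The same held without the 4% of cells with the most UMIs and without barcode sequences found in both libraries. With mt- and ribosomal protein UMIs out of the denominator Hsph1 joined the 3, and in the rest the same 3 were higher. Single members also moved: Hspd1 was between -0.34 and 0.76, and Hsp90aa1 between 0.51 and 1.26. Thinned to 1000 UMIs, Hsp90aa1 in B cells was at 0.13 instead of 1.15. The rho with the mt- share in the Id2-deficient library changed sign for Hspa1a (-0.015, 0.052 thinned and 0.050 with barcodes over 10% mt- left out), Hsph1 (-0.11, 0.025 thinned), Dnajb1 (-0.13, 0.0096 thinned) and Dnaja1 (-0.11, 0.0032 with barcodes over 10% mt- left out, an alternative chosen after seeing the data). Leaving out the barcode sequences found in both libraries, also chosen after seeing the data, put Hsp90aa1 just under 1.5-fold. No paired analysis was possible because each group has 1 library, and for the same reason no replicate could be left out. Depth limits the B cells most, with 1 to 191 UMIs per member and library.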

Other observations

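The cells in no class, 101 control and 21 Id2-deficient, were led by myeloid markers (180172 and 133285 CPM summed over 8 genes). They were mixed, as a T cell marker UMI was seen in 32.7% and 57.1% of them and a B cell marker UMI in 20.8% and 42.9%. B cell markers summed to 529 CPM in the control and 2944 CPM in the Id2-deficient library. Id2 stood at 95.3 and 134 CPM, with a UMI in 31.7% and 28.6% of these cells, so loss of Id2 was not seen in them. In them Hspa1a had 53 and 40 UMIs, Hspa1b 45 and 31 UMIs and Hspa8 929 and 81 UMIs, out of 1038820 and 112091 UMIs in all. The pair Hspa1a and Hspa1b thus measured 94.3 and 633 CPM (log2 2.75, 2.29 to 3.20). Hspa8 measured 894 and 723 CPM (log2 -0.31, -0.65 to 0.02). Hspd1 (log2 -1.69), Hsp90aa1 (-1.49), Hspe1 (-1.13) and Hsp90ab1 (-0.63) were lower by 1.5-fold or more in the Id2-deficient library. In these cells, too, the libraries differ in the myeloid, red cell and B cell RNA they hold, and the part of these RNAs in the ratios was not tested.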
